A study of Caenorhabditis elegans with 2 samples.

Results

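The genes of the cytosolic translation elongation machinery were examined for sites recovered with tagged JUN-1 in the nematode Caenorhabditis elegans. They are eef-1A.1, eef-1A.2, eef-1B.1, eef-1G and eef-2, which is 5 of 19973 protein-coding genes. They were chosen by name from genes already known to carry peaks in these same lists, so the members were selected on promoter peak signal and their having a peak is a description with no test. Chromatin immunoprecipitation and sequencing was done on whole L4 larvae, the last larval stage, of strain OP234, with both sexes pooled and the age unknown. The strain carries the unc-119(ed3) mutation and the inserted transgene wgIs234, which targets jun-1, and the label names eGFP-jun-1 as the protein precipitated. The transgene adds a tagged copy, and the labels do not say whether the endogenous jun-1 was still present or at what level the tagged protein was made. There was 1 group of 2 biological replicates, so the measurements are of where the tagged protein was found, not of a difference between conditions. In whole larvae a site used in many cells and one used strongly in a few cells cannot be told apart.

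During elongation the GTPase eEF1A brings each charged tRNA to the ribosome, and its spent GDP is replaced by GTP with the help of the eEF1B complex. The GTPase eEF2 then moves the ribosome along the messenger RNA by a codon. In the worm, eef-1A.1 and eef-1A.2 both encode eEF1A, eef-1B.1 encodes a nucleotide exchange subunit of eEF1B, eef-1G encodes its gamma subunit and eef-2 encodes eEF2. JUN-1 is the relative of the AP-1 subunit JUN, a bZIP transcription factor.

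Every one of the 5 genes held a summit in its promoter windows in all 4 peak lists used. Promoter windows reached 1000 bp upstream and 200 bp downstream of each annotated transcript start. The joint list, made from both replicates, held 13085 regions, and its threshold list held the 899 of these that passed the authors' limit on the irreproducible discovery rate. The replicate lists held 19396 and 23742 regions. Both replicate lists and the joint list include background. Among all protein-coding genes, 3.35% had a promoter summit in the threshold list, 24.7% in the joint list, 31.3% in the replicate 1 list and 35.6% in the replicate 2 list. Because the genes were chosen on these values, nothing is read from the count of 5 of 5 against those shares.

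The sequences at 4 of the summits are printed first. The eEF1A pair and the eEF1B pair differed in where the peak lay and in whether GAGAGA lay within 50 bp of the summit. With so few genes, nothing is read from this contrast. Each line reads 5′ to 3′ in the direction of its gene's transcription, from the RefSeq sequence of assembly WBcel235, which is ce11. A line reaches 50 bp to each side of the joint-list summit, or is moved upstream by the bases that would have lain in the gene. Capitals mark matches on either strand to the GA repeat GAGAGA, to the CCAAT box or to GGCGC. The window of eef-1A.1 is chrIII:6972062-6972162 (minus strand), that of eef-1A.2 is chrX:7823200-7823300 (plus), that of eef-1B.1 is chrIII:7973387-7973487 (minus) and that of eef-1G is chrV:10965618-10965718 (plus). The summit is base 51 in the lines of both eEF1A genes, the last base in that of eef-1B.1 and base 85 in that of eef-1G. In the line of eef-1G the capitals lie more than 50 bp from the summit.
eef-1A.1: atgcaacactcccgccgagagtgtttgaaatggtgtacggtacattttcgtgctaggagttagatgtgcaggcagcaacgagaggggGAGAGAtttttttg
eef-1A.2: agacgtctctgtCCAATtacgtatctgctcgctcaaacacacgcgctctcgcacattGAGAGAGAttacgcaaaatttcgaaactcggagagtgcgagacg
eef-1B.1: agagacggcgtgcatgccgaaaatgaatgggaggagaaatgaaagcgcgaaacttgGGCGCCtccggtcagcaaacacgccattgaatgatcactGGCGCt
eef-1G: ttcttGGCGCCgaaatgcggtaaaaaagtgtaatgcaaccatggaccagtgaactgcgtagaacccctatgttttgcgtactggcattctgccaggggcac

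Both eEF1A genes had a GA repeat within 50 bp of the summit, and the other 3 genes did not. In windows of 50 bp to each side of the joint-list summit, GAGAGA began 37 bp past the summit of eef-1A.1, and 2 overlapping matches began 7 bp past that of eef-1A.2. The same letters lay in 29.6% of threshold-list windows and in 12.4% of joint-list windows, and in 27.3% (18 of 66) of the windows at threshold-list summits 350 to 450 bp upstream of a start, where those of both eEF1A genes lay. Nothing is read from the count of 2 of 5 genes against these shares, and in windows of 25 bp to each side only 1 gene held GAGAGA. Neither the AP-1 site TGANTCA nor the CRE-like TGACGTCA was found in the window of any of the 5 genes. Those motifs were in 4.45% and 0.556% of threshold-list windows, so that most windows of that list also lacked them.

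Of the other letters searched, CCAAT was in the windows of eef-1A.2 and eef-2 (16.2% of threshold-list windows), and TTTCAG was in that of eef-1G (6.90%). No member window held CACGTG (4.67%), TATAAA (5.34%) or GATAAG (6.90%). The letters GGCGC were searched for after the sequences had been seen. Counting both strands and overlapping matches, they occurred 4 times in the window of eef-1B.1 and once in that of eef-2, and were in 22.9% of threshold-list and 8.63% of joint-list windows. At threshold-list summits within 50 bp of a start, the position of both genes, the share was 39.1% (25 of 64). In eef-1G the printed line holds them farther upstream, outside the centred window. The G and C content of the 5 windows ran from 47.5% at eef-2 to 54.5% at eef-1B.1, with a median of 48.5% over the threshold list and of 38.6% over the joint list. A match is a description of letters, and no match says nothing about a factor.

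Of the 2 eEF1A genes, eef-1A.2 on chromosome X had the strongest site of the 5. The gene spans X from 7823654 to 7825769 on the plus strand. Its peak, from 7823062 to 7823437, had a signal of 129 in the joint list, 65.4 in replicate 1 and 62.2 in replicate 2. These signals are the peak caller's own values, on a scale that no source used here gives, so they rank regions within 1 list. The ranks were 86, 90 and 103, so that eef-1A.2 led the 5 genes in every list. Its summit was intergenic, 404 bp upstream of the only annotated start in the joint list and in replicate 1, and 393 bp upstream in replicate 2. The peak overlapped the downstream end of a non-coding RNA gene on the other strand, R03G5.8, which lay 135 bp from the summit.

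The site of its paralogue eef-1A.1 lay at nearly the same distance from its start. That gene spans III from 6970026 to 6971712 on the minus strand, and its peak, from 6971924 to 6972299, had a joint signal of 90.4 at rank 231. Signals were 46.6 in replicate 1 (rank 212) and 42.1 in replicate 2 (rank 301). The summit lay 400 bp upstream of the annotated start in the joint list, 402 bp in replicate 1 and 393 bp in replicate 2. Of 669 genes with a threshold-list summit, 72 (10.8%) had their strongest one between 350 and 450 bp upstream, a range chosen after these positions were seen. The hairpin of the microRNA cel-mir-5549, at III from 6971976 to 6972085 on the same strand as eef-1A.1, lay wholly inside the peak with its edge 27 bp from the summit. It was the only tRNA, snoRNA, snRNA, miRNA or rRNA gene within 250 bp of any of the 5 joint-list summits.

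The coding sequences of eef-1A.1 and eef-1A.2 were 94.0% identical over 1389 aligned bases, but their peaks were not copies of each other. The 377 bp windows at the summits aligned with 171 of 338 paired bases identical (50.6%), by a global alignment that also pairs unrelated sequence. A BLAST search of the whole genome with each 376 bp peak found no other match for eef-1A.1, eef-1A.2, eef-1B.1 or eef-1G. For eef-2 it found 1 match elsewhere of 42 bp at 90.5% identity. Both peaks lay upstream of the genes, outside the coding sequences.

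Both eEF1B members, eef-1B.1 and eef-1G, had their joint summits within 50 bp of a transcript start, as did eef-2. Another eEF1B gene, eef-1B.2, which is not a member, had its strongest joint summit 226 bp upstream of a start. The gamma subunit gene eef-1G, at V from 10965719 to 10967922 on the plus strand, had a peak from 10965514 to 10965889 with a joint signal of 106 at rank 141. Its signal was 57.7 in replicate 1 (rank 121) and 42.0 in replicate 2 (rank 304). The joint summit lay 17 bp upstream of the first of 5 annotated starts and was intergenic, as was that of replicate 2 at the same base, and the summit in replicate 1 lay 29 bp upstream.

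The exchange subunit gene eef-1B.1 was the member whose replicates differed most. It spans III from 7972382 to 7973386 on the minus strand, with a peak from 7973199 to 7973574 and a joint signal of 82.8 at rank 290. Its signal was 26.2 in replicate 1, at rank 921, and 55.3 in replicate 2, at rank 148. It was the lowest of the 5 in replicate 1 and the second highest in replicate 2. On the log2 scale replicate 2 over replicate 1 was 1.07, against -0.15 for eef-1A.1, -0.07 for eef-1A.2, -0.46 for eef-1G and -0.54 for eef-2. Over 846 threshold-list peaks with a summit within 100 bp in both replicate lists the median of this value was 0.01, and 4.26% had a higher one than eef-1B.1. With 2 replicates no test of these differences is given, and read depth is unknown.

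The summit of eef-1B.1 lay 1 bp upstream of its only start in the joint list and in replicate 2, and 21 bp inside the gene in replicate 1. It fell in the exon of a non-coding RNA gene on the other strand, F54H12.9, which spans III from 7973327 to 7973465. The windows of eef-1B.1 also held weaker summits, 634 and 840 bp upstream, with joint signals of 43.8 (rank 1205) and 24.6 (rank 4687). Both lay inside the neighbouring gene aco-2 and missed the threshold list. No other member had more than 1 promoter summit in any of the lists.

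The translocase gene eef-2, at I from 9163531 to 9166952 on the plus strand, had the weakest joint site of the 5. Its peak, from 9163365 to 9163740, had a signal of 79.3 at rank 321. Signals were 45.8 in replicate 1 (rank 226) and 31.6 in replicate 2 (rank 628). Its joint summit lay 22 bp downstream of the first of 3 annotated starts, in the 5′ untranslated region, at 30 bp downstream in replicate 1 and 21 bp in replicate 2. With eef-1B.1 and eef-1G this makes 3 of the 5 genes with a joint summit within 50 bp of a start, where 66 of 669 genes (9.87%) had their strongest threshold-list summit. This grouping was not planned beforehand, and nothing is read from the count against that share.

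The 5 sites were recovered at nearly the same positions in both replicates, in an order that partly held. Summits of the replicates lay from 9 bp apart at eef-1A.1 and eef-2 to 22 bp apart at eef-1B.1. Such matching was common, since 846 of the 899 threshold-list peaks had a summit within 100 bp in both replicate lists. That list was itself limited by reproducibility, so nothing is read from the match of the 5 sites. The lowest joint signal, 79.3, was above both the threshold list's median of 67.5 and its minimum of 49.6. All 5 peaks had the highest -log10 q-value of the joint list, 3.01, which 517 regions shared. The members were chosen on signal, so nothing is read from their signals or q-values against the list. In replicate 1 the order by signal was eef-1A.2, eef-1G, eef-1A.1, eef-2 and eef-1B.1. In replicate 2 it was eef-1A.2, eef-1B.1, eef-1A.1, eef-1G and eef-2, with eef-1A.1 and eef-1G at 42.1 and 42.0. The places of eef-1A.2 and eef-1A.1 were the same in both, and the other 3 genes changed places.

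**Figure D1:**
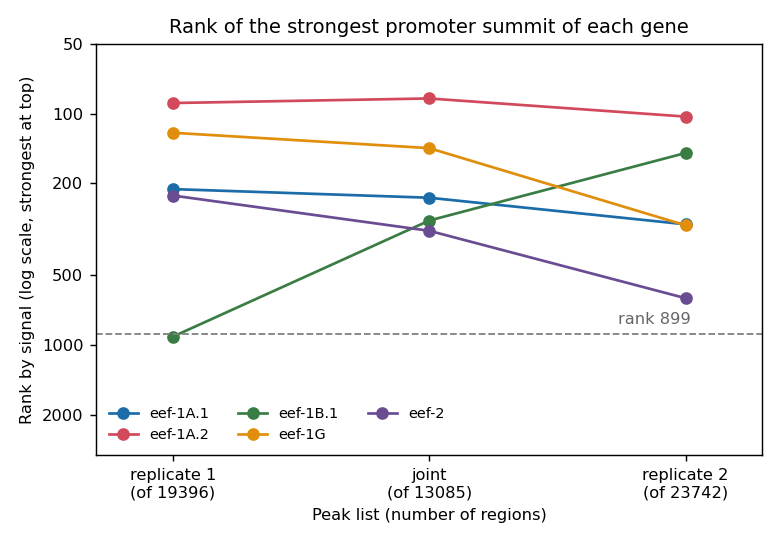
Rank by signal (log axis, strongest at the top) of the strongest promoter summit of each gene in the replicate 1, joint and replicate 2 lists, with a dashed line at rank 899, the size of the threshold list. The line of eef-1A.2 stays between ranks 86 and 103, while eef-1B.1 goes from rank 921 in replicate 1 to rank 148 in replicate 2.

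**Figure D2:**
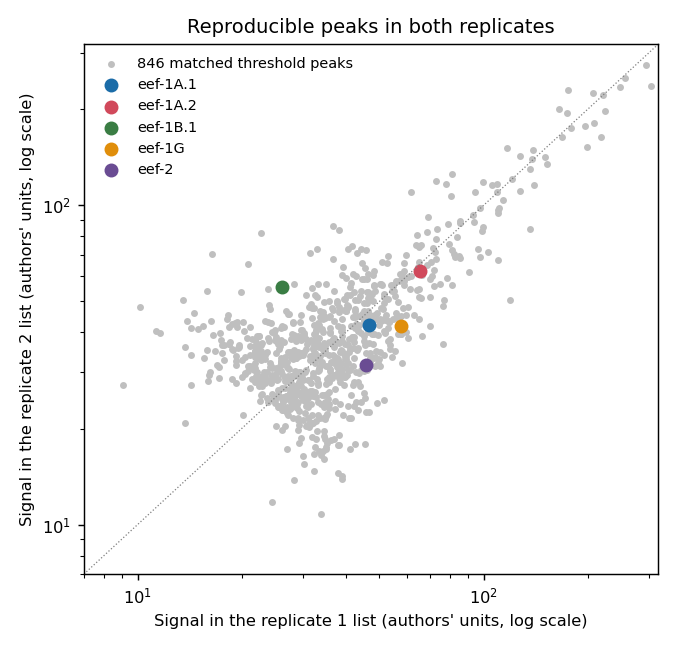
Signal in the replicate 1 list (x axis) against the replicate 2 list (y axis), both in the authors' units on log axes, for 846 threshold-list peaks matched within 100 bp (grey) and the 5 genes (colours), with a dotted line at equal values. The point of eef-1B.1, at 26.2 and 55.3, lies above the dotted line, and those of eef-1G and eef-2 lie below it.

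Most of these sites were shared with a gene transcribed in the opposite direction. At eef-1A.1 the neighbour was rfc-4, a subunit of the clamp loader replication factor C, with its start 541 bp from that of eef-1A.1 and 141 bp from the summit. At eef-1G it was ctf-4, the homologue of a replisome adaptor known from yeast, with 180 bp between the starts and the summit 163 bp upstream of the start of ctf-4. At eef-2 it was clsp-1, the homologue of the replication checkpoint protein claspin, with 265 bp between the starts and the summit 287 bp upstream of that of clsp-1. At eef-1B.1 it was aco-2, which encodes mitochondrial aconitase, with 331 bp between the starts and the summit 330 bp upstream of that of aco-2.

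For rfc-4, ctf-4 and clsp-1 the shared summit was the only joint-list summit in their promoter windows. Which gene of such a pair a site belongs to is not resolved by the lists. Nearest start gave the peak at eef-1A.1 to rfc-4 and left those of the other 4 members with them. Over the threshold list, 142 of 519 summits in promoter windows (27.4%) lay in windows of genes on both strands. Of the 5 members, 4 had such a summit. The share of 27.4% counts summits, and a summit of this kind lies in the windows of several genes. It is therefore not the share of genes with such a summit, which was not counted, and nothing is read from 4 of 5 against it. The exception was eef-1A.2, whose window was shared with no other protein-coding gene.

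**Figure D3:**
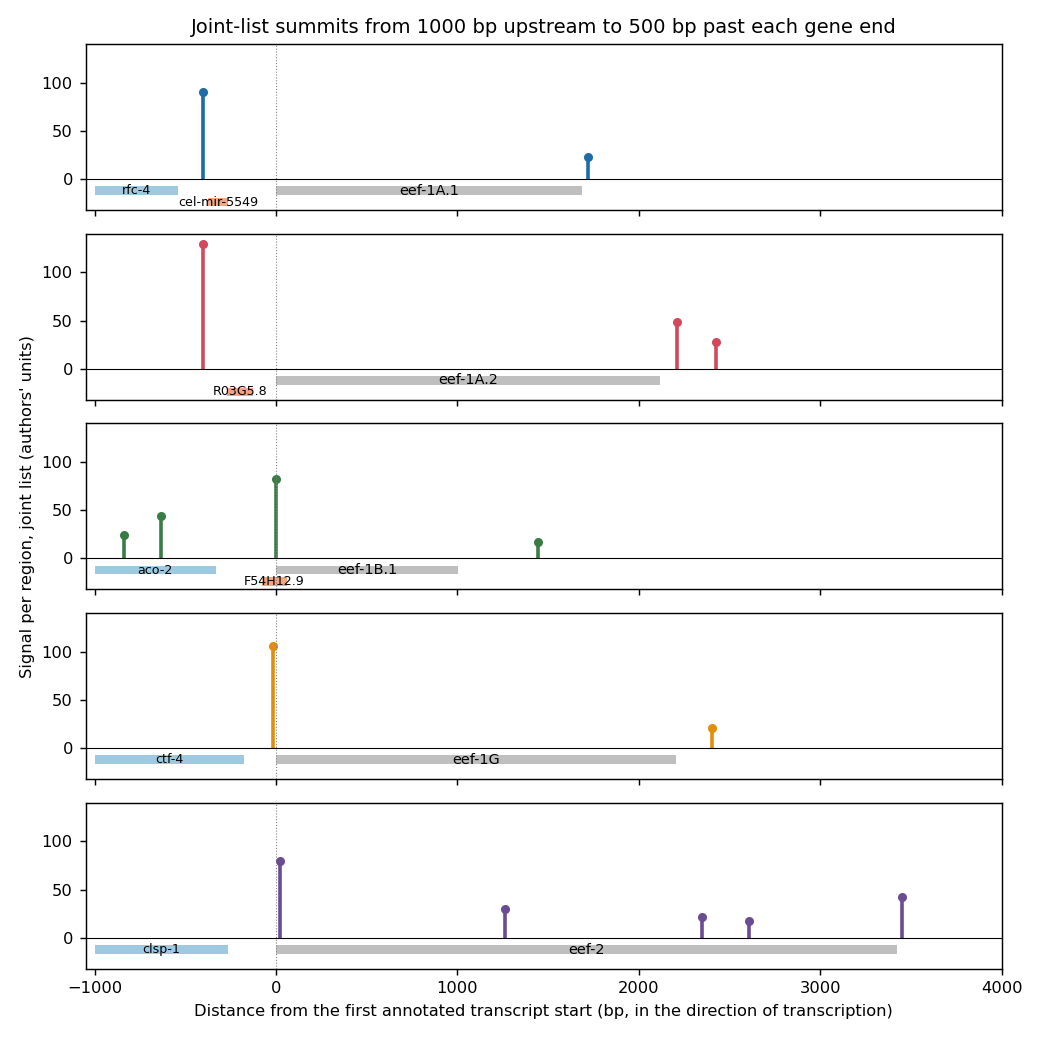
Joint-list summits of each gene, drawn by distance in bp from its first annotated start in the direction of transcription (x axis) and by signal in the authors' units (y axis), with the gene in grey, neighbouring protein-coding genes at the promoter peak in blue and non-coding RNA genes in orange. The tall summits of eef-1A.1 and eef-1A.2 stand 400 and 404 bp upstream, and those of the other 3 genes stand at the start. Lower summits stand within 250 bp of the gene ends of all but eef-1B.1, where a low summit stands 440 bp past the end.

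Weaker regions lay at the downstream ends of 4 of the 5 genes, which the choice of members had not used. This was looked for after the positions had been seen, and no test is given. A joint-list summit lay within 250 bp of the annotated gene end at eef-1A.1, eef-1A.2, eef-1G and eef-2, as it did for 10.4% of all protein-coding genes. Among the 669 genes with a threshold-list promoter summit, the members included, the share was 24.4%. None of these regions passed the authors' threshold. Those of eef-1A.1 and eef-1G lay far down the joint list, at ranks 5838 and 7115 of 13085, and that list includes background. In replicate 1 they were at ranks 12914 and 17255 of 19396. A joint-list region at rank 4687, in the window of eef-1B.1, had a -log10 q-value of only 0.346.

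The strongest of them was at eef-1A.2, 97 bp past the gene end inside the non-coding RNA gene C54D2.14, with a joint signal of 48.1 at rank 986. Its signals were 22.1 in replicate 1 and 26.3 in replicate 2. At eef-2 the summit lay 30 bp past the end with a joint signal of 42.5 at rank 1280, and with 23.8 and 29.0 in the replicates, whose scales need not be shared. The end of eef-1A.1 had a joint signal of 22.7 at rank 5838, 32 bp past the end inside F31E3.12, and 9.74 and 16.7 in the replicates.

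At eef-1G the region was 202 bp past the end inside F17C11.22, with a joint signal of 21.1 at rank 7115 and with 8.59 and 17.9 in the replicates. The replicates placed some of these regions differently. Summits lay 20 bp past the end in replicate 1 and 186 bp past it in replicate 2 at eef-1G, and 11 bp before and 150 bp past it at eef-2. The closest region to the end of eef-1B.1 lay 440 bp past it, inside F54H12.5, with a joint signal of 17.5. Inside the gene bodies, beyond 200 bp from the first start and before the end, eef-2 alone had joint-list summits. Its 3 had signals of 30.5, 21.3 and 17.8. The strongest had no summit within 100 bp in replicate 1, and the next had none in replicate 2. In eef-1G, a replicate 1 region with a signal of 8.84 had its summit in the intronic snoRNA gene F17C11.15, with no joint-list summit there.

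Of 63 symbols listed for other genes of elongation, initiation, termination and recycling, 53 matched a protein-coding gene, of which 6 (11.3%) had a threshold-list summit and 30 (56.6%) a joint-list one. Of all protein-coding genes 3.35% and 24.7% did. The list had been drawn up with earlier results of these data known and received no set test. Among the remaining elongation genes, 2 of 16 had a threshold-list summit and 11 a joint-list one. Of the initiation genes the counts were 4 and 17 of 34, and of the termination and recycling genes 0 and 2 of 3.

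The gene of the other exchange subunit of eEF1B, eef-1B.2, had a joint signal of 29.4 at rank 2994, 226 bp upstream of a start, with 14.3 and 15.5 in replicates 1 and 2. The gene of the kinase that inactivates eEF2 by phosphorylation, efk-1, had 27.1 at rank 3677, with 14.6 and 7.50. The mitochondrial EF-Tu genes tufm-1 and tufm-2 had 30.0 and 30.3, with a matching summit in replicate 2 only. Their joint signals were all below the lowest of the 5 members, 79.3, but the members were chosen on signal and nothing is read from this gap.

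The strongest of the other genes was iff-2, which encodes the elongation and termination factor eIF5A, with a joint signal of 227 at rank 28 and with 109 and 117 in the replicates. Its summit lay 76 bp upstream of its nearest start, in a window shared with F54C9.14. It was followed by drr-2, a homologue of the initiation factor eIF4H, with 219 at rank 30 in a window shared with set-16. The eIF3 subunit genes eif-3.C (83.0 at rank 287) and eif-3.J (59.1 at rank 599, 727 bp upstream) and the cap-binding gene ife-2 (58.1 at rank 626) also passed. So did abcf-2, an ATP-binding cassette protein gene, with 66.0 at rank 474, but its summit lay 889 bp upstream in a window shared with T27E9.2 and ant-1.1, and it had no matching summit in replicate 1.

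**Figure D4:**
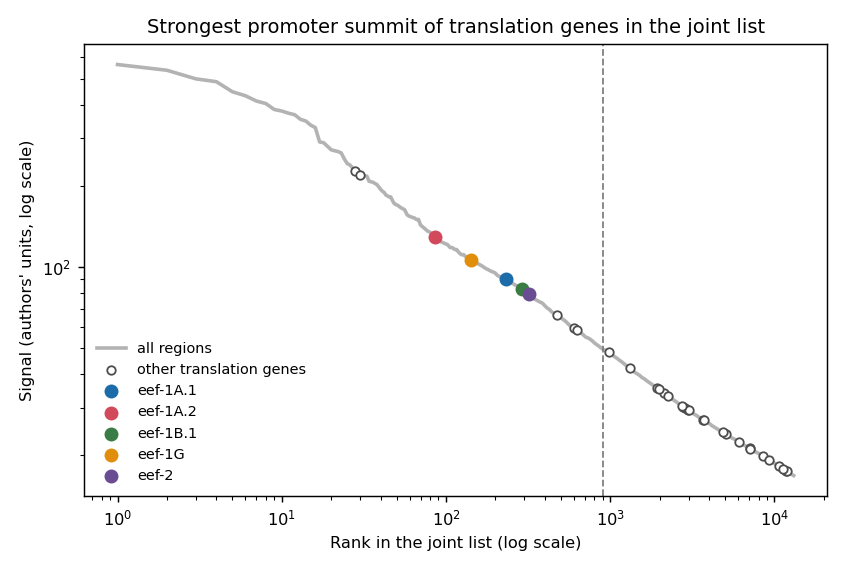
Signal against rank in the joint list, both on log axes, for all regions (grey line), for the strongest promoter summit of each of the 5 genes (colours) and for those of 30 other translation genes (open circles), with a dashed line at rank 899. The 5 genes lie between ranks 86 and 321, and of the open circles 2 lie above them, at ranks 28 and 30.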

How the data were processed

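Peaks of tagged JUN-1 were taken from 4 deposited ce11 lists, namely the joint list, its threshold list and the list of each replicate. Per the deposited descriptions, regions were called from the alignments with a control, as input to the irreproducible discovery rate step, and no source used here names the aligner, the caller or their versions. The signal per region and the -log10 q-value are the values the authors deposited, and regions of high control background may be lowered or missing. The ce10 lists and the control were not used here. Nearly all joint-list regions (99.6%) had the same width of 376 bp, and the 899 threshold-list regions were the strongest of the joint list.

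Summits were column 2 plus column 10 plus 1, set against Ensembl release 115 annotation of WBcel235. Starts of all transcripts of protein-coding genes were used, including those trans-spliced in the worm, where an annotated start may lie downstream of the true one. All results are descriptions with no test, since the members, lists and windows were chosen with earlier results of these data known. Named genes are the members, genes and small RNA genes at their summits, and listed translation genes in the threshold list. The efk-1, eef-1B.2, tufm-1 and tufm-2 values, and the genes at the downstream ends, were chosen after being seen. Replicates are named as separate biosamples, and whether cultures were separate is not stated. Summits planted in known windows were all found when the code was tested on simulated data. The code ran under Python 3.11.15 with pandas 2.3.3, numpy 2.4.6, matplotlib 3.10.9, Biopython 1.88 and BLAST+ 2.17.0 with an expectation limit of 1e-05.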

Additional observations from a re-analysis of the deposited data

How the results depend on the processing

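Windows from 500 or 2000 bp upstream and the middle of the region in place of the summit left the count of 5 members in the threshold list and the 5 joint signals as they were. With each summit given to its nearest start only, 4 members remained, since the peak at eef-1A.1 went to rfc-4 and that gene then had no value. Without replicate 2, taking the 899 strongest regions of replicate 1, 4 members had a summit, since eef-1B.1 was at rank 921, and without replicate 1 all 5 did. All 5 had matching summits in both replicates within 50, 100 or 250 bp or by overlap. Within 100 bp, 846 of the 899 threshold-list peaks did too. The percent of its list that a member's site exceeded was 98.2 for eef-1A.1 in the joint list and 98.7 to 98.9 with either replicate left out, 99.3 and 99.5 to 99.6 for eef-1A.2, and 97.5 and 97.4 to 98.8 for eef-2. It was 97.8 and 95.3 to 99.4 for eef-1B.1, and 98.9 and 98.7 to 99.4 for eef-1G. With windows of 25 bp to each side 1 member had GAGAGA and 1 had GGCGC, against 2 and 2 in the main windows, and with 100 bp to each side 2 and 3. With either replicate left out GGCGC was in 1 to 2 members. Of the other translation genes, 6 had a threshold-list summit in the main windows. The count was 4 with windows from 500 bp upstream and 4 with nearest start only. Among the 449 strongest peaks of the threshold list it was 3. Counts of members with a region at the gene end were 3 within 100 bp and 5 within 500 bp. No paired analysis was possible because there was 1 group and no result came from a test. Read depth and mappability cannot be had from the lists.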
